A study of Mus musculus with 11 samples.

Results

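The genes described here are 52 mouse genes that type I interferon is known to induce, most of them part of the antiviral response. They were taken as a named list, and 51 of the 52 were present in the normalized expression table of 11118 genes. All 51 also passed the filter for testing, more than 1 CPM (counts scaled to a common library size) in at least 4 pools, as did 10951 genes in total. *Oas1g* alone was found only in the count table, with 3 to 32 counts per pool. Expression was measured by bulk RNA-seq in conventional type 1 dendritic cells (cDC1s) that were sorted from B16 tumors, in 11 pools of 2 to 4 C57BL/6 mice of both sexes. B16 is a melanoma line of the mouse. Every mouse carried floxed XBP1 alleles (XBP1 fl/fl). The 4 control pools had no Cre, and among them replicate 4 was XBP1 fl/fl, IRE1 fl/fl. The 4 XBP1ΔDC pools were XBP1 fl/fl, CD11c-CRE, and the 3 XBP1ΔDCIRE1truncDC pools carried CD11c-CRE with both XBP1 fl/fl and IRE1 fl/fl. Recombination removes the transcription factor XBP1 and, in the latter line, truncates the sensor IRE1 so that it lacks its RNase domain. The promoter of CD11c (*Itgax*) drives Cre in all CD11c-expressing cells, not in cDC1s alone.

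Type I interferons bind a receptor of IFNAR1 and IFNAR2 chains. The signal assembles a complex that contains STAT2 and IRF9, enters the nucleus and binds interferon-stimulated response elements (ISREs) in front of many genes. Their products sense viral nucleic acids, degrade or block viral RNA, and tag proteins with the ubiquitin-like ISG15. In cDC1s, which cross-present tumor antigens to CD8 T cells, sensing of type I interferon is known to matter for antitumor T cell priming.

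The pools held 21089065 to 26843486 counts (median 24367818), so depth was alike in all groups. All 8 cDC1 markers (*Xcr1*, *Clec9a*, *Cadm1*, *Batf3*, *Irf8*, *Itgae*, *Wdfy4* and *Tlr3*) were expressed, with a summed level of 7469 to 9228 CPM per pool, whereas 5 T cell markers summed to at most 7.82 CPM. *Xbp1* was at 244 to 271 CPM in control, 130.1 to 165 in XBP1ΔDC and 179 to 236 in XBP1ΔDCIRE1truncDC pools. *Ern1*, which encodes IRE1, was at 9.82 to 19.0, 9.74 to 15.6 and 17.0 to 26.0 CPM in the same order. A total per gene does not show the deletion of single exons, so it does not check the truncation. In these bulk samples, fewer cells of a type and less RNA per cell cannot be told apart.

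The levels of the interferon-induced genes spanned a wide range. Per kilobase of annotated exon, *Ifitm2*, which encodes a membrane protein that blocks viral entry, had the highest mean over the 11 pools, at 980.0 CPM per kb. *Ifitm3* followed at 353, *Phf11b* at 162 and *Slfn2* at 153 CPM per kb. The transcription factor genes *Irf1* and *Irf7* were at 73.1 and 63.9 CPM per kb, and *Isg15* at 48.5. Textbook markers of a strong interferon response were lower, with *Rsad2* at 6.19, *Ifit1* at 2.35, *Ifit3* at 1.704 and *Mx2* at 1.19 CPM per kb. *Oas2* was the lowest, at 0.236 CPM per kb.

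Many of these genes lie side by side in the mouse genome (GRCm38, which is mm10, GENCODE vM21). Of the 51, 21 fell into 9 groups of neighbours less than 100 kb apart. They include *Ifit2*, *Ifit3* and *Ifit1* (chr19:34550694-34650009), *Parp14*, *Dtx3l* and *Parp9* (chr16:35832874-35972605), *Mx1* and *Mx2* (chr16:97447035-97560900), and *Ifitm2*, *Ifitm1* and *Ifitm3* (chr7:140954837-141010770). *Rsad2* and *Cmpk2* are adjacent at chr12:26442746-26479837. Chromosome 11, which carries both targeted genes, holds 9 of the 51, and the nearest to *Ern1* is *Ifi35* at a distance of 4.9 Mb. The annotated span of 21 of the 51 overlaps another gene, and the library method does not mark strand, so reads of overlapping genes cannot be separated by strand. Reads that match close relatives equally well, such as *Oas1a* and *Oas1g*, *Phf11b* and *Phf11d*, or the *Ifi203* and *Ifi204* family, also cannot be assigned to either copy with certainty.

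To show what these genes share in their promoters, windows of 300 bases (250 before to 50 after each RefSeq start, GRCm38.p6) were searched on both strands for an ISRE core (GAAA, any 2 bases, then GAAA). A window was given for 39 of the 51. The core was in a window of 16 of the 39 (41.0%), against 1079 of all 27025 genes with a window (3.99%). The core of the gamma-activated site, another interferon-responsive element, TTCNNNGAA, was found in 9 of the 39 (23.1%) and in 9.55% of all genes. It overlapped an ISRE core in *Ifitm3*, and neighbouring ISRE cores overlapped one another in *Isg15* and *Oas1a*. No window was given for *Mx1*, *Mx2*, *Oas2*, *Usp18*, *Dhx58*, *Zbp1*, *Rtp4*, *Parp9*, *Parp14*, *Ly6a*, *Tor3a* and *Ifi204*. The windows below, printed 5′ to 3′ on the strand of the gene with the ISRE core in capitals, belong to *Trim30a* (chr7:104465144-104465443, minus strand, first base of the core at -36 from the start), *Ifi203* (chr1:173942443-173942742, minus strand, core at -35) and, as a gene without the core, *Lgals3bp* (chr11:118401910-118402209, minus strand). They are shown because they have some of the smallest p-values in the comparisons that follow.
Trim30a: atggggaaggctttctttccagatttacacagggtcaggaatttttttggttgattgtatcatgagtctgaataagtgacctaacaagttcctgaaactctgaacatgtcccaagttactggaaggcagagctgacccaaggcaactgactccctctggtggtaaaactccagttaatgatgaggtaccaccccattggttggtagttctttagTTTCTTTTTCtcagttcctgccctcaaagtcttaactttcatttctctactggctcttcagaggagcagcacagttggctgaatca
Ifi203: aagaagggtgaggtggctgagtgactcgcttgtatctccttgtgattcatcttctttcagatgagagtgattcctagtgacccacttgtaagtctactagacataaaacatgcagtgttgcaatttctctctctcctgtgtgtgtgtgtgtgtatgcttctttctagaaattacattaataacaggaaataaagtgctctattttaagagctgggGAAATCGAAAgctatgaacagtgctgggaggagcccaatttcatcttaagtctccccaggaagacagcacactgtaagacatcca
Lgals3bp: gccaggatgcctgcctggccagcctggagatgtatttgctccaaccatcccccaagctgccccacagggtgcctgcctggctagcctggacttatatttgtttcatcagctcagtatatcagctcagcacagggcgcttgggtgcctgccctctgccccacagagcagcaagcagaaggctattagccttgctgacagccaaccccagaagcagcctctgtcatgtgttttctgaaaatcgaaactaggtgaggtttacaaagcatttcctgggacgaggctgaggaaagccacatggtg

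A further pair of windows was chosen after the search results had been seen. *Isg15* (chr4:156200769-156201068, minus strand) holds 3 overlapping ISRE cores that start at -78, -72 and -66. *Irf1* (chr11:53769764-53770063, plus strand) holds no ISRE core but a TTCNNNGAA core at -90, shown in capitals in its window.
Isg15: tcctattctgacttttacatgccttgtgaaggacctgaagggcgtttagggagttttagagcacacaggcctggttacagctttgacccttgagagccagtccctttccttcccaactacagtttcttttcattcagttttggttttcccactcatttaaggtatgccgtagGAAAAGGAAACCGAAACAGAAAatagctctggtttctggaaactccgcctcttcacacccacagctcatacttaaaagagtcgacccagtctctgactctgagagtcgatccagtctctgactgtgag
Irf1: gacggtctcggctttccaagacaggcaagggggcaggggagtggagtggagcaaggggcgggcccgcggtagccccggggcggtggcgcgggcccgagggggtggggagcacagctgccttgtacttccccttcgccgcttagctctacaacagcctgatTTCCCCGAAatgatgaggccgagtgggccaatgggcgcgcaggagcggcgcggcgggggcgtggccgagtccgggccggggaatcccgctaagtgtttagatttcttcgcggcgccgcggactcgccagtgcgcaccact

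In XBP1ΔDC cDC1s the interferon-induced genes lay slightly above control as a group, but none of them passed the test alone. Of the 51, 46 had a log2 fold change above 0, where 51.2% of all genes tested did, and their median was 0.22 (all genes 0.0050). With limma voom 42 were above 0 (51.4% of all genes), and with DESeq2 46 (52.2%). Many of the 51 genes rose and fell in the same pools, so they are not independent and such a count is not that many separate results. A gene was called at an adjusted p below 0.05 with a fold change of more than 1.5, by edgeR's quasi-likelihood test with Benjamini-Hochberg adjustment over all 10951 genes. No interferon-induced gene was called, against 0.493% of all genes, and the smallest edgeR adjusted p among them was 0.416. At an unadjusted p under 0.05, 4 were higher (2.67% of all genes) and 1 was lower (4.95%), 5 in all with edgeR (7.62%), 5 with limma voom and 6 with DESeq2. These other tools called 0 as well. All 4 XBP1ΔDC pools lay above all 4 control pools for 1 gene, *Mx1* (1.63% of all genes), and below them for 1, *Lgals3bp* (3.67%). Without control replicate 4 the median fell to 0.11, and 44 of the 51 were above 0 (51.6% of all genes). At an unadjusted p under 0.05, 2 genes were then higher (2.05% of all genes) and 1 lower (4.33%). Markers of monocytes and macrophages had higher values in the same comparison, with 9 of 10 above 0 (51.2% of all genes). Their median log2 fold change was 0.72 (median SE 0.578), and none was called. *C1qc*, a complement gene of macrophages, was the 1 with an unadjusted p under 0.05 (higher, 2.67% of all genes). Its log2 fold change was 1.27 (edgeR adjusted p = 0.655), with 1.65 to 5.06 CPM in control pools. XBP1ΔDC replicate 3 was at 17.1 CPM and the other XBP1ΔDC pools were at 2.93 to 9.47 CPM. The summed level of the 10 was 480.1 to 719 CPM in control, 537 to 670.4 in XBP1ΔDC and 555 to 570.1 in XBP1ΔDCIRE1truncDC pools, of which *Ccr2* alone made up 433 to 687 CPM. Their part in the values of the interferon-induced genes was not tested.

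In XBP1ΔDCIRE1truncDC cDC1s the group was close to control. A log2 fold change above 0 was found in 31 of the 51 (49.4% of all genes), with a median of 0.05 (all genes -0.0031). No gene of the list was called (0.21% of all genes), and the smallest edgeR adjusted p was 0.238, that of *Irf1*. At an unadjusted p under 0.05, 5 were higher (5.73% of all genes) and 1 was lower (5.44%), 6 in all with edgeR (11.2%) and 5 each with limma voom and DESeq2, which both called 0. The pools did not overlap for *Herc6* and *Ifi35*, which were higher (4.31% of all genes), and for *Trim30a*, which was lower (5.81%). Without XBP1ΔDCIRE1truncDC replicate 2 the median was -0.04, with 2 genes higher (6.74% of all genes) and 2 lower (5.24%) at an unadjusted p under 0.05. Without control replicate 4 it was likewise -0.04, with 3 higher (4.15%) and 2 lower (4.63%). Markers of dendritic cell maturation also had higher values in this comparison. All 6 maturation genes (*Ccr7*, *Fscn1*, *Ccl22*, *Il12b*, *Cd40* and *Socs2*) were higher in XBP1ΔDCIRE1truncDC against control at an unadjusted p under 0.05 (5.73% of all genes). None of the 6 was called, with edgeR adjusted p-values of 0.197 to 0.433. Their summed level was 5144, 3986 and 7987 CPM in XBP1ΔDCIRE1truncDC replicates 1 to 3, against 2168 to 4369 CPM in control. Only for *Fscn1* did these pools not overlap with control (4.31% of all genes). In XBP1ΔDC pools the sum was 2830.2 to 5834 CPM. There, too, all 6 maturation genes had a log2 fold change above 0 against control (51.2% of all genes), with a median of 0.45. Of these, 0 had an unadjusted p under 0.05 (7.62% of all genes). Their part in the values of the interferon-induced genes was not tested.

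Between the mutant lines, 12 of the 51 genes had a log2 fold change above 0 for XBP1ΔDCIRE1truncDC over XBP1ΔDC (50.4% of all genes), with a median of -0.09 (all genes 0.0015). With limma voom 15 were above 0 (50.1% of all genes), and with DESeq2 12 (51.8%). The list held 0 calls (0.0731% of all genes), and the smallest edgeR adjusted p was 0.392. At an unadjusted p under 0.05, 1 was higher (2.79% of all genes) and 6 were lower (2.5%), 7 in all with edgeR (5.29%), 7 with DESeq2 and 6 with limma voom, again with 0 calls. The higher gene was *Ifi35*, and the lower ones were *Mx2*, *Trim30a*, *Ifi203*, *Mx1*, *Parp14* and *Ifih1*. Pools did not overlap for *Ifi35* (higher, 3.11% of all genes) or for *Mx2* and *Ifi203* (lower, 2.96%). Without XBP1ΔDCIRE1truncDC replicate 2, 0 were higher (3.8%) and 6 lower (3.38%) at an unadjusted p under 0.05. The 3 comparisons share pools pairwise, so their fold changes are not independent.

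**Figure D1:**
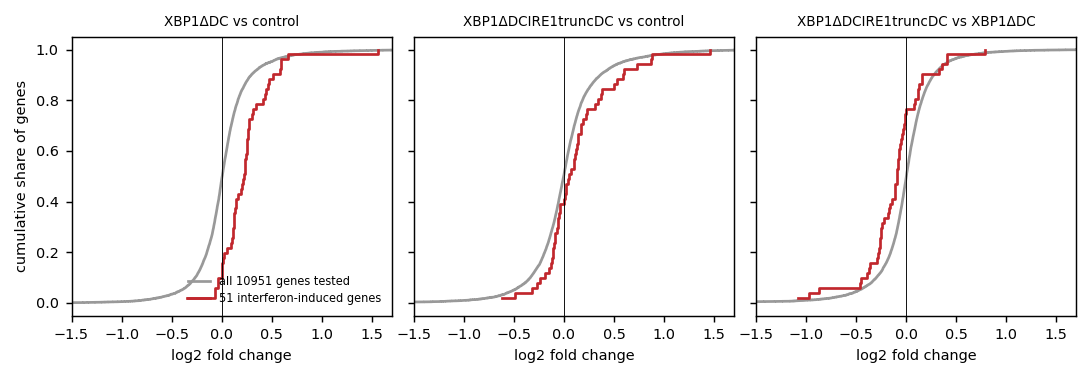
Cumulative share of genes (vertical axis) by log2 fold change (horizontal axis) in the 3 comparisons, for the 51 interferon-induced genes (red) and all 10951 genes tested (grey). In XBP1ΔDC against control the red line lies to the right of the grey one, with a median of 0.22 against 0.0050, and in XBP1ΔDCIRE1truncDC against XBP1ΔDC it lies to the left, with a median of -0.09. The horizontal axis leaves out a few genes beyond its ends.

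The spread between pools of one genotype was larger than these differences. To follow the genes pool by pool, each gene's log2 CPM was scaled to a z-score across pools, and the 51 z-scores of a pool were averaged. This average was 0.282, -0.493, 0.174 and -0.807 in control replicates 1 to 4. It was 0.498, 0.822, 0.771 and -1.01 in XBP1ΔDC replicates 1 to 4. In XBP1ΔDCIRE1truncDC replicates 1 to 3 it was -0.465, 0.452 and -0.228. The group means were -0.211 ± 0.525 (SD, n = 4), 0.271 ± 0.864 (SD, n = 4) and -0.0802 ± 0.476 (SD, n = 3), and the ranges of all groups overlapped. The highest and the lowest of the 11 pools were thus both XBP1ΔDC pools.

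**Figure D2:**
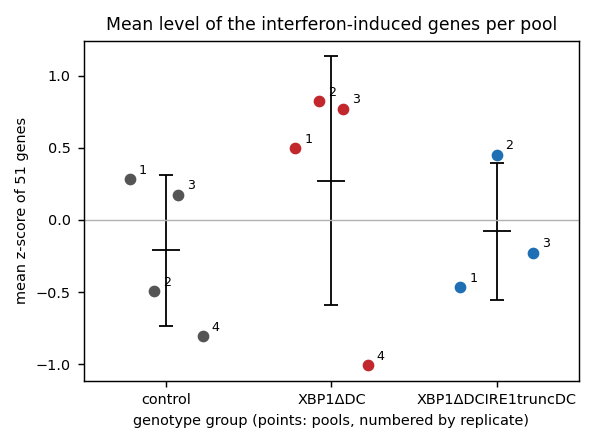
Mean z-score of the 51 interferon-induced genes (vertical axis) in each pool, by genotype group (horizontal axis), with points numbered by replicate and the group mean ± SD in black. XBP1ΔDC replicates 1 to 3 lie between 0.498 and 0.822, and XBP1ΔDC replicate 4 is the lowest pool of all at -1.01.

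XBP1ΔDC replicate 4 had the lowest level of all 11 pools for 22 of the 51 genes and the lowest of its own group for 39 (24.6% of all genes tested). Among the 22 were *Isg15*, *Usp18*, *Rsad2*, *Oas3*, *Oasl2*, *Ifit1*, *Ifit3* and *Ifi44*. XBP1ΔDC replicate 2 was the highest of all pools for 17 genes, XBP1ΔDC replicate 3 for 10 and XBP1ΔDCIRE1truncDC replicate 2 for 10. Control replicate 4 was the lowest control for 28 of the 51 (24.6% of all genes). XBP1ΔDCIRE1truncDC replicate 2 was the highest of its group for 34 (35.8% of all genes), and replicate 1 the lowest for 27 (29.8%). Within groups, the SD of log2 CPM had a median of 0.338 over the 51 genes and 0.219 over all genes tested, and 36 of the 51 lay above the latter. *Oas2*, *Ly6a*, *Ifit3* and *Ifitm1* varied most, with an SD of 1.71, 1.41, 1.11 and 1.01. *Trim30a*, *Sp100*, *Irf9* and *Stat2* varied little, with an SD of 0.116 to 0.146.

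**Figure D3:**
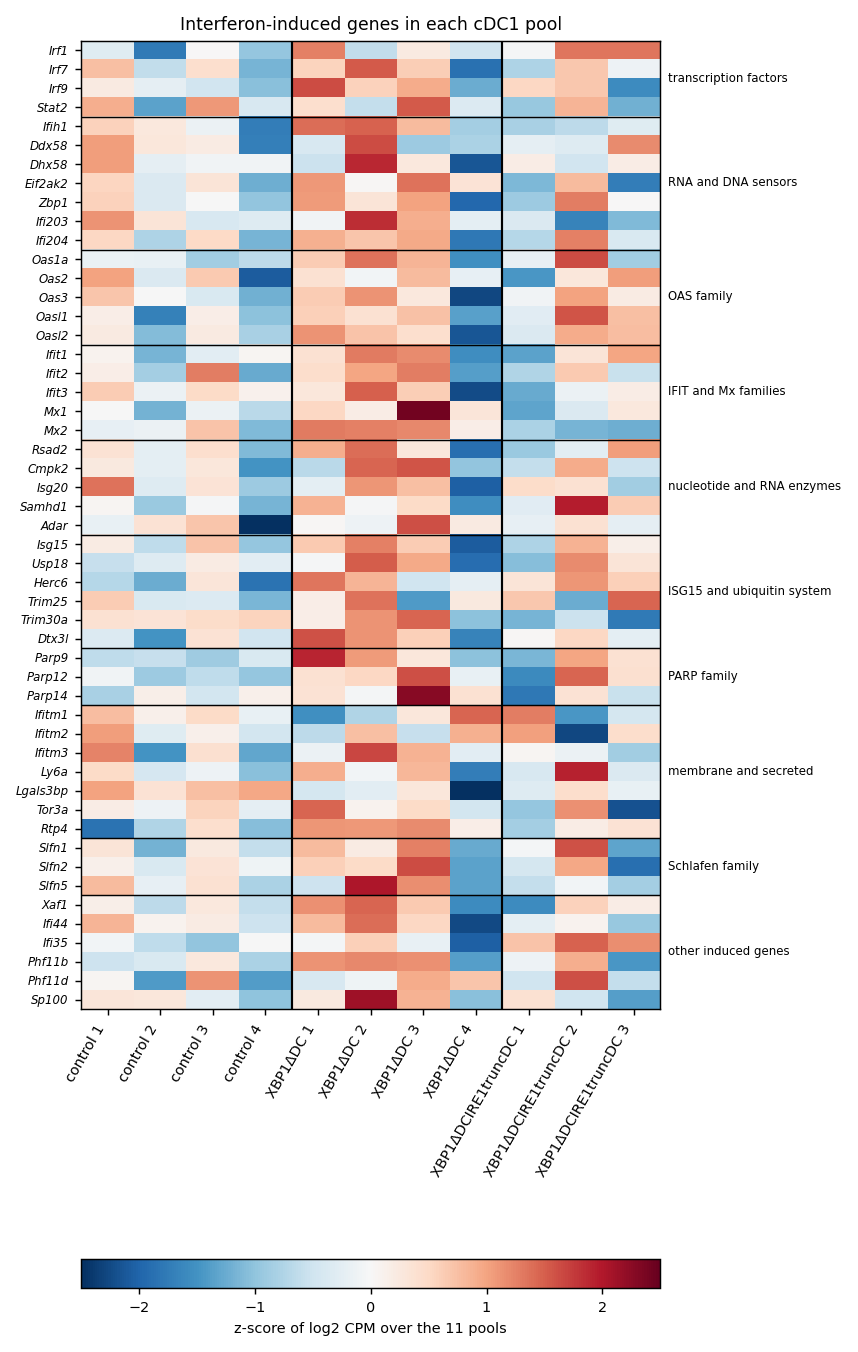
Z-scores of log2 CPM over the 11 pools (colour, red high and blue low) for the 51 interferon-induced genes (rows, grouped by role) in each pool (columns, grouped by genotype). Most rows are blue in XBP1ΔDC replicate 4, which was the lowest pool for 22 genes, and red in XBP1ΔDC replicates 1 to 3, while *Ifitm1* is blue in XBP1ΔDC replicates 1 and 2 and red in XBP1ΔDC replicate 4. The 2 values beyond the ends of the colour scale take its end colours.

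Of the single pools left out, XBP1ΔDC replicate 4 gave the most genes at an unadjusted p under 0.05 in both comparisons that include it. Without it, in XBP1ΔDC against control, the median log2 fold change became 0.38, and 48 of the 51 were above 0 (50.6% of all genes), against 39 without XBP1ΔDC replicate 2 (51.8%). At an unadjusted p under 0.05, 15 genes were then higher (2.76% of all genes) and 1 lower (4.8%), but none passed the adjusted test with edgeR. This pool had the lowest mean z-score of these same genes (-1.01), so leaving it out raises the XBP1ΔDC mean of most of them. The counts without it are therefore no separate support for a difference. The 15 were *Dtx3l*, *Herc6*, *Ifih1*, *Ifit1*, *Mx1*, *Mx2*, *Oas1a*, *Oasl1*, *Oasl2*, *Parp12*, *Parp9*, *Phf11b*, *Rtp4*, *Usp18* and *Xaf1*. In XBP1ΔDCIRE1truncDC against XBP1ΔDC, 11 genes were then lower at an unadjusted p under 0.05 (2.2% of all genes) and 1 higher (2.79%), and again none was called. Beside this, the summed level of 5 melanoma markers was highest in XBP1ΔDC replicate 4, at 63.1 CPM. The sum was 58.5 CPM in control replicate 4 and 50.6 CPM in control replicate 3, which had a mean z-score of 0.174. It ranged over 8.22 to 58.5 CPM in control, 10.7 to 63.1 in XBP1ΔDC and 6.17 to 8.13 in XBP1ΔDCIRE1truncDC pools, and 3 of the 5 genes passed the filter. Their part in the result was not tested.

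The genes that encode the transcription factors of the response were among the more abundant. *Irf1*, a factor induced by type I and type II interferon, had the smallest p of the list in XBP1ΔDCIRE1truncDC against control. The control pools had 245, 142, 274 and 191 CPM of *Irf1*, the XBP1ΔDC pools 436, 217, 296 and 228 and the XBP1ΔDCIRE1truncDC pools 271, 449 and 448. Only XBP1ΔDCIRE1truncDC replicate 1 overlapped the control range. For *Irf1*, XBP1ΔDCIRE1truncDC against control gave a log2 fold change of 0.87 (SE 0.267, edgeR adjusted p = 0.238). In XBP1ΔDC the corresponding log2 fold change was 0.47 (SE 0.250), with XBP1ΔDC replicate 1 far above the other 3 pools. *Irf7*, the factor needed for a full wave of interferon alpha genes, followed the general pattern of the pools. *Irf7* was measured at 288, 196, 262 and 167 CPM in control, 273, 359.7, 278 and 137 in XBP1ΔDC and 187, 282 and 224 in XBP1ΔDCIRE1truncDC pools. XBP1ΔDC replicates 2 and 4 were the highest and the lowest of all. *Irf7* in XBP1ΔDC against control had a log2 fold change of 0.20 (SE 0.251, edgeR adjusted p = 0.951). In XBP1ΔDCIRE1truncDC it was 0.02 (SE 0.271). *Irf9* and *Stat2* encode subunits of the complex that binds ISREs. Levels of *Irf9* were 146, 140.1, 137 and 129.6 CPM in control, 167, 151, 156 and 127 in XBP1ΔDC and 150.1, 152 and 123 in XBP1ΔDCIRE1truncDC pools. *Stat2* stood at 256, 207, 260.3 and 226 CPM in control replicates 1 to 4, at 245, 222, 272 and 227 in the XBP1ΔDC pools and at 215, 255 and 209.7 in the XBP1ΔDCIRE1truncDC pools. Groups overlapped for both. On the log2 scale *Irf9* in XBP1ΔDC against control differed by 0.12 (SE 0.0953, edgeR adjusted p = 0.889). The difference of *Stat2* in XBP1ΔDC against control was 0.02 on the log2 scale (SE 0.0982, edgeR adjusted p = 0.988). Against control, XBP1ΔDCIRE1truncDC had 0.04 (SE 0.103) for *Irf9* and -0.07 (SE 0.106) for *Stat2*.

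Of 7 genes for sensors of foreign RNA and DNA, 6 were above 0 on the log2 scale in XBP1ΔDC against control (median 0.16), 3 in XBP1ΔDCIRE1truncDC against control (median -0.04), and 1 in XBP1ΔDCIRE1truncDC against XBP1ΔDC (median -0.11). *Ifi203* belongs to a family of interferon-inducible proteins that bind DNA. The control pools had 39.5, 35.1, 31.5 and 31.9 CPM of *Ifi203*, the XBP1ΔDC pools 33.0, 44.0, 38.2 and 32.2 and the XBP1ΔDCIRE1truncDC pools 31.6, 26.0 and 28.3. All XBP1ΔDCIRE1truncDC pools lay below the XBP1ΔDC pools, while one overlapped the controls. For *Ifi203*, XBP1ΔDCIRE1truncDC against XBP1ΔDC gave a log2 fold change of -0.36 (SE 0.136, edgeR adjusted p = 0.826). *Ifih1*, which encodes the RNA sensor MDA5, had log2 fold changes of 0.31 (SE 0.184) in XBP1ΔDC and -0.13 (SE 0.200) in XBP1ΔDCIRE1truncDC against control. *Ddx58*, the gene of the RNA sensor RIG-I, was low and variable, between 1.47 and 8.78 CPM. *Dhx58* (LGP2, a relative of both) and *Eif2ak2* (the kinase PKR, which halts translation) had log2 fold changes of -0.03 and 0.16 in XBP1ΔDC against control. *Zbp1*, a sensor of Z-form nucleic acids, was at 41.4 CPM in XBP1ΔDC replicate 4 and at 143 CPM in XBP1ΔDCIRE1truncDC replicate 2, the lowest and the highest of all pools.

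The oligoadenylate synthetases make short adenylate chains that switch on RNase L. Their family had 5 tested genes, of which 4 were above 0 in XBP1ΔDC (median log2 fold change 0.44) and all 5 in XBP1ΔDCIRE1truncDC (median 0.38) against control. *Oasl1*, an inhibitor of *Irf7* translation, had 1 of the 5 unadjusted p-values under 0.05 among higher genes in XBP1ΔDCIRE1truncDC. *Oasl1* was measured at 35.4, 14.4, 35.5 and 19.95 CPM in control, 43.8, 39.2, 46.4 and 16.9 in XBP1ΔDC and 28.7, 69.9 and 47.2 in XBP1ΔDCIRE1truncDC pools. *Oasl1* in XBP1ΔDCIRE1truncDC against control had a log2 fold change of 0.88 (SE 0.386, edgeR adjusted p = 0.410). *Oasl2* had log2 fold changes of 0.60 (SE 0.491) and 0.73 (SE 0.524), with 3.65 CPM in XBP1ΔDC replicate 4 against 18.7 to 29.4 in the other XBP1ΔDC pools. *Oas2* reached at most 2.35 CPM, had 0 counts in control replicate 4 and could not be compared with useful precision.

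The IFIT proteins bind viral RNA, and the Mx proteins are dynamin-like GTPases that block incoming virus. All 5 genes of these families were above 0 in XBP1ΔDC against control (median 0.41), 2 were in XBP1ΔDCIRE1truncDC against control (median -0.06), and none was in XBP1ΔDCIRE1truncDC against XBP1ΔDC (median -0.40). Levels of *Mx1* were 36.4, 28.7, 35.4 and 31.8 CPM in control, 40.4, 37.8, 58.9 and 38.6 in XBP1ΔDC and 28.03, 33.9 and 38.3 in XBP1ΔDCIRE1truncDC pools. The lowest XBP1ΔDC pool was just above the highest control, and XBP1ΔDC replicate 3 stood apart. On the log2 scale *Mx1* in XBP1ΔDC against control differed by 0.41 (SE 0.155, edgeR adjusted p = 0.493). Against XBP1ΔDC, XBP1ΔDCIRE1truncDC had -0.40 (SE 0.169). The C57BL/6 allele of *Mx1* is known not to give a working protein. *Mx2* was expressed at a low level. *Mx2* stood at 3.77, 3.85, 5.27 and 2.72 CPM in control replicates 1 to 4, at 6.52, 6.40, 6.28 and 4.31 in the XBP1ΔDC pools and at 3.05, 2.66 and 2.61 in the XBP1ΔDCIRE1truncDC pools. All XBP1ΔDCIRE1truncDC pools were below all XBP1ΔDC pools, and 1 control pool was above the lowest XBP1ΔDC pool. The difference of *Mx2* in XBP1ΔDCIRE1truncDC against XBP1ΔDC was -1.08 on the log2 scale (SE 0.284, edgeR adjusted p = 0.392). For *Mx2*, XBP1ΔDC against control gave a log2 fold change of 0.59 (SE 0.255, edgeR adjusted p = 0.621). The log2 fold change of *Mx2* in XBP1ΔDCIRE1truncDC against control was -0.49 (SE 0.281). *Ifit1*, *Ifit2* and *Ifit3*, neighbours on chromosome 19, had log2 fold changes of 0.59, 0.22 and 0.25 in XBP1ΔDC and of 0.31, -0.06 and -0.62 in XBP1ΔDCIRE1truncDC against control, with overlapping pools throughout.

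Among the enzymes that act on nucleotides and RNA, *Samhd1* had the highest CPM. It encodes a triphosphohydrolase that depletes the deoxynucleotides a virus needs. The control pools had 376, 281, 367 and 263 CPM of *Samhd1*, the XBP1ΔDC pools 479, 368, 428 and 234 and the XBP1ΔDCIRE1truncDC pools 341, 664 and 448. XBP1ΔDCIRE1truncDC replicate 2 was the highest and XBP1ΔDC replicate 4 the lowest of the 11 pools. *Samhd1* in XBP1ΔDCIRE1truncDC against control had a log2 fold change of 0.59 (SE 0.245, edgeR adjusted p = 0.384). *Rsad2* (viperin) and its neighbour *Cmpk2*, a mitochondrial nucleotide kinase, had log2 fold changes of 0.24 and 0.35 in XBP1ΔDC and of 0.07 and 0.10 in XBP1ΔDCIRE1truncDC against control. *Adar*, the enzyme that edits adenosine to inosine in double-stranded RNA, was at 117 ± 17.1, 128 ± 11.3 and 122 ± 4.45 CPM in control, XBP1ΔDC and XBP1ΔDCIRE1truncDC pools (SD, n = 4, 4 and 3). The exonuclease gene *Isg20* had negative values against control in both, -0.07 and -0.11.

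*Isg15* encodes a ubiquitin-like protein, *Herc6* its main ligase in mice, and *Usp18* the protease that removes it and also restrains the interferon receptor. *Isg15* was measured at 37.4, 28.2, 44.5 and 25.3 CPM in control, 43.5, 53.4, 43.2 and 17.4 in XBP1ΔDC and 27.01, 46.9 and 36.6 in XBP1ΔDCIRE1truncDC pools. On the log2 scale *Isg15* in XBP1ΔDC against control differed by 0.22 (SE 0.295, edgeR adjusted p = 0.958). XBP1ΔDC replicate 4 was again the lowest pool, and the group ranges overlapped. Levels of *Usp18* were 59.6, 63.5, 72.3 and 64.5 CPM in control, 68.1, 99.0, 86.4 and 43.2 in XBP1ΔDC and 52.9, 91.6 and 74.3 in XBP1ΔDCIRE1truncDC pools. The difference of *Usp18* in XBP1ΔDC against control was 0.19 on the log2 scale (SE 0.219, edgeR adjusted p = 0.949). For *Herc6* both mutant lines had higher means than control. *Herc6* stood at 33.7, 29.7, 43.2 and 25.6 CPM in control replicates 1 to 4, at 55.8, 49.5, 35.6 and 38.0 in the XBP1ΔDC pools and at 43.4, 52.8 and 46.5 in the XBP1ΔDCIRE1truncDC pools. All XBP1ΔDCIRE1truncDC pools lay above the controls, and 2 XBP1ΔDC pools overlapped them. For *Herc6*, XBP1ΔDCIRE1truncDC against control gave a log2 fold change of 0.53 (SE 0.187, edgeR adjusted p = 0.311). *Herc6* in XBP1ΔDC against control had a log2 fold change of 0.44 (SE 0.175, edgeR adjusted p = 0.544). *Trim30a*, which encodes a ubiquitin ligase of the tripartite motif family, varied little between control pools. The control pools had 179.8, 179, 181 and 183 CPM of *Trim30a*, the XBP1ΔDC pools 176, 195, 202 and 155 and the XBP1ΔDCIRE1truncDC pools 152, 163 and 143. The XBP1ΔDCIRE1truncDC pools were below every control pool, and one was above the lowest XBP1ΔDC pool. On the log2 scale *Trim30a* in XBP1ΔDCIRE1truncDC against control differed by -0.24 (SE 0.0920, edgeR adjusted p = 0.333). The difference of *Trim30a* in XBP1ΔDCIRE1truncDC against XBP1ΔDC was -0.25 on the log2 scale (SE 0.0920, edgeR adjusted p = 0.807). *Trim25*, a ligase that acts on RIG-I, and *Dtx3l*, the partner of PARP9, had log2 fold changes of 0.14 and 0.26 in XBP1ΔDC and of 0.22 and 0.14 in XBP1ΔDCIRE1truncDC against control.

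**Figure D4:**
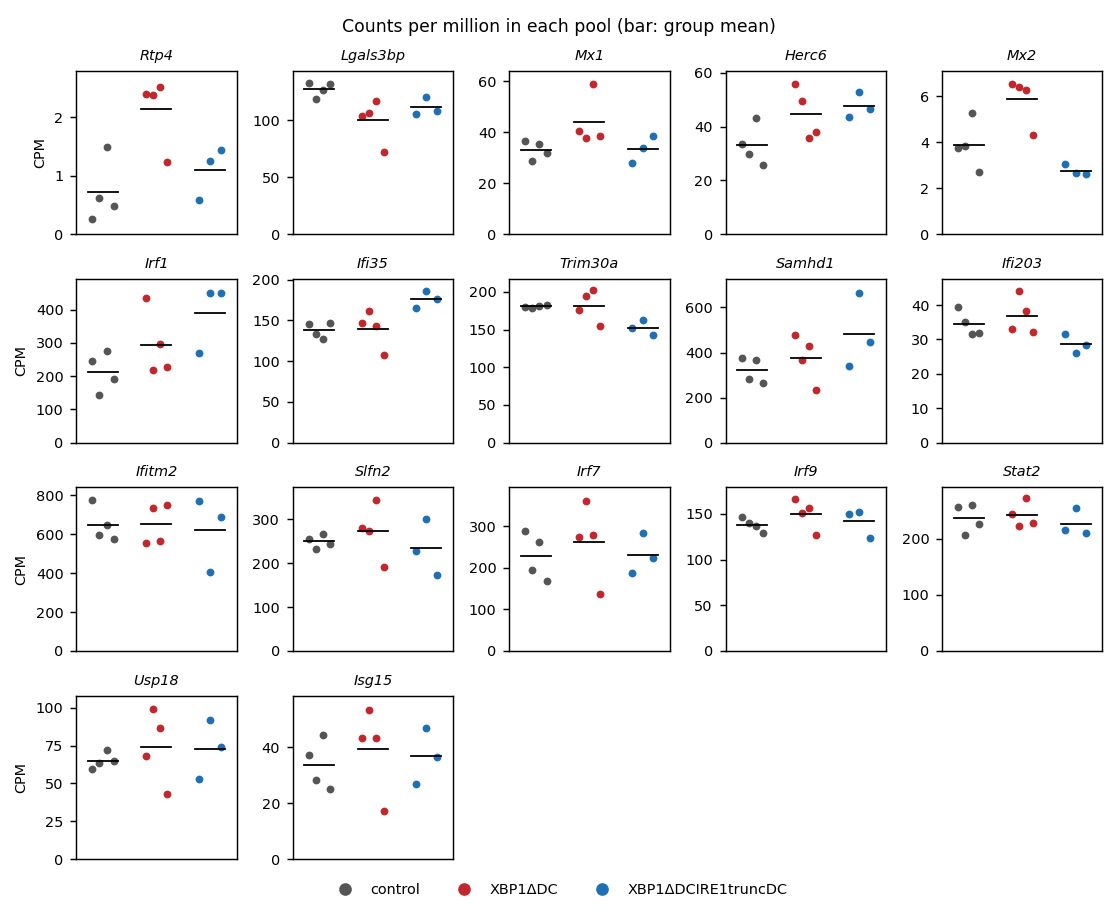
CPM (vertical axes, from 0) of 17 interferon-induced genes in each pool, by genotype (grey control, red XBP1ΔDC, blue XBP1ΔDCIRE1truncDC), with the group mean as a bar. *Mx2* separates the mutant lines, at 4.31 to 6.52 CPM in XBP1ΔDC and 2.61 to 3.05 CPM in XBP1ΔDCIRE1truncDC pools, whereas *Irf7* and *Isg15* overlap in all groups.

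The 3 PARP genes, which encode ADP-ribosyltransferases, had log2 fold changes in XBP1ΔDC against control of 0.24 for *Parp9*, 0.26 for *Parp12* and 0.27 for *Parp14*. In XBP1ΔDCIRE1truncDC they were at 0.14, 0.17 and -0.09. *Parp14* was at 65.6 CPM in XBP1ΔDC replicate 3 and at 31.4 to 46.7 CPM in all other pools.

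Of the 7 genes for membrane and secreted proteins, 5 were above 0 in XBP1ΔDC (median 0.05) and 2 in XBP1ΔDCIRE1truncDC (median -0.06) against control. *Rtp4*, a chaperone that helps receptors reach the cell surface, had the largest log2 fold change of the list in XBP1ΔDC and a level near the filter of 1 CPM. *Rtp4* was measured at 0.254, 0.629, 1.49 and 0.491 CPM in control, 2.40, 2.38, 2.53 and 1.24 in XBP1ΔDC and 0.586, 1.26 and 1.43 in XBP1ΔDCIRE1truncDC pools. Control replicate 3 lay above XBP1ΔDC replicate 4, so the groups overlapped. For *Rtp4*, XBP1ΔDC against control gave a log2 fold change of 1.57 (SE 0.543, edgeR adjusted p = 0.416). *Lgals3bp*, a secreted glycoprotein that binds galectin-3, ran against the list. Levels of *Lgals3bp* were 132, 119, 127 and 131 CPM in control, 104, 107, 117 and 72.2 in XBP1ΔDC and 106, 120.4 and 108 in XBP1ΔDCIRE1truncDC pools. Every XBP1ΔDC pool was below every control pool. *Lgals3bp* in XBP1ΔDC against control had a log2 fold change of -0.35 (SE 0.123, edgeR adjusted p = 0.425). The value for XBP1ΔDCIRE1truncDC against control was -0.19 (SE 0.133). *Ifitm2*, the most abundant gene of the list, overlapped between all groups. *Ifitm2* stood at 775, 595, 648 and 576 CPM in control replicates 1 to 4, at 555, 733, 564 and 751 in the XBP1ΔDC pools and at 771, 404 and 687 in the XBP1ΔDCIRE1truncDC pools. On the log2 scale *Ifitm2* in XBP1ΔDC against control differed by 0.005 (SE 0.178, edgeR adjusted p = 0.999). *Ifitm1* stood at 134 CPM in XBP1ΔDC replicate 4 and 120.4 CPM in XBP1ΔDCIRE1truncDC replicate 1, and at 19.6 to 86.6 CPM in the other pools, and both of the former pools had a mean z-score below 0. *Ly6a*, the stem cell antigen Sca-1, was at 145.9 CPM in XBP1ΔDCIRE1truncDC replicate 2 and at 5.20 CPM in XBP1ΔDC replicate 4.

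The Schlafen genes *Slfn1*, *Slfn2* and *Slfn5*, of which *Slfn2* is needed for quiescence of T cells, had log2 fold changes of 0.51, 0.13 and 0.11 in XBP1ΔDC and of 0.50, -0.09 and -0.15 in XBP1ΔDCIRE1truncDC against control. The control pools had 256, 232, 268 and 245 CPM of *Slfn2*, the XBP1ΔDC pools 281, 275, 344 and 192 and the XBP1ΔDCIRE1truncDC pools 229, 302 and 172. XBP1ΔDC replicate 3 was the highest and XBP1ΔDCIRE1truncDC replicate 3 the lowest pool, with all groups overlapping. The difference of *Slfn2* in XBP1ΔDC against control was 0.13 on the log2 scale (SE 0.174, edgeR adjusted p = 0.958).

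Of the remaining 6 induced genes, all were above 0 in XBP1ΔDC against control (median 0.12), yet *Ifi35* was the one that separated XBP1ΔDCIRE1truncDC from both other groups. *Ifi35* was measured at 146, 134, 127 and 147 CPM in control, 146, 162, 143 and 108 in XBP1ΔDC and 165, 186 and 177 in XBP1ΔDCIRE1truncDC pools. The lowest XBP1ΔDCIRE1truncDC pool was above every control and XBP1ΔDC pool. *Ifi35* lies 4.9 Mb from *Ern1*, and outside this line only control replicate 4, at 147 CPM, carried IRE1 fl/fl. The other controls were at 127 to 146 CPM and the XBP1ΔDC pools at 108 to 162 CPM. The part of DNA linked to the floxed allele was not tested. For *Ifi35*, XBP1ΔDCIRE1truncDC against control gave a log2 fold change of 0.34 (SE 0.119, edgeR adjusted p = 0.296). *Ifi35* in XBP1ΔDCIRE1truncDC against XBP1ΔDC had a log2 fold change of 0.33 (SE 0.119, edgeR adjusted p = 0.787). In XBP1ΔDC against control it was 0.01 (SE 0.1104). *Sp100*, a component of nuclear bodies, and *Phf11b* ranged over 187 to 257 and 166 to 216 CPM. *Phf11b* was at 167 CPM in XBP1ΔDC replicate 4 and at 214 to 216 CPM in the other XBP1ΔDC pools. *Xaf1*, *Ifi44* and *Phf11d* had log2 fold changes of 0.27, 0.14 and 0.11 in XBP1ΔDC and of 0.0049, -0.32 and 0.10 in XBP1ΔDCIRE1truncDC against control.

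**Figure D5:**
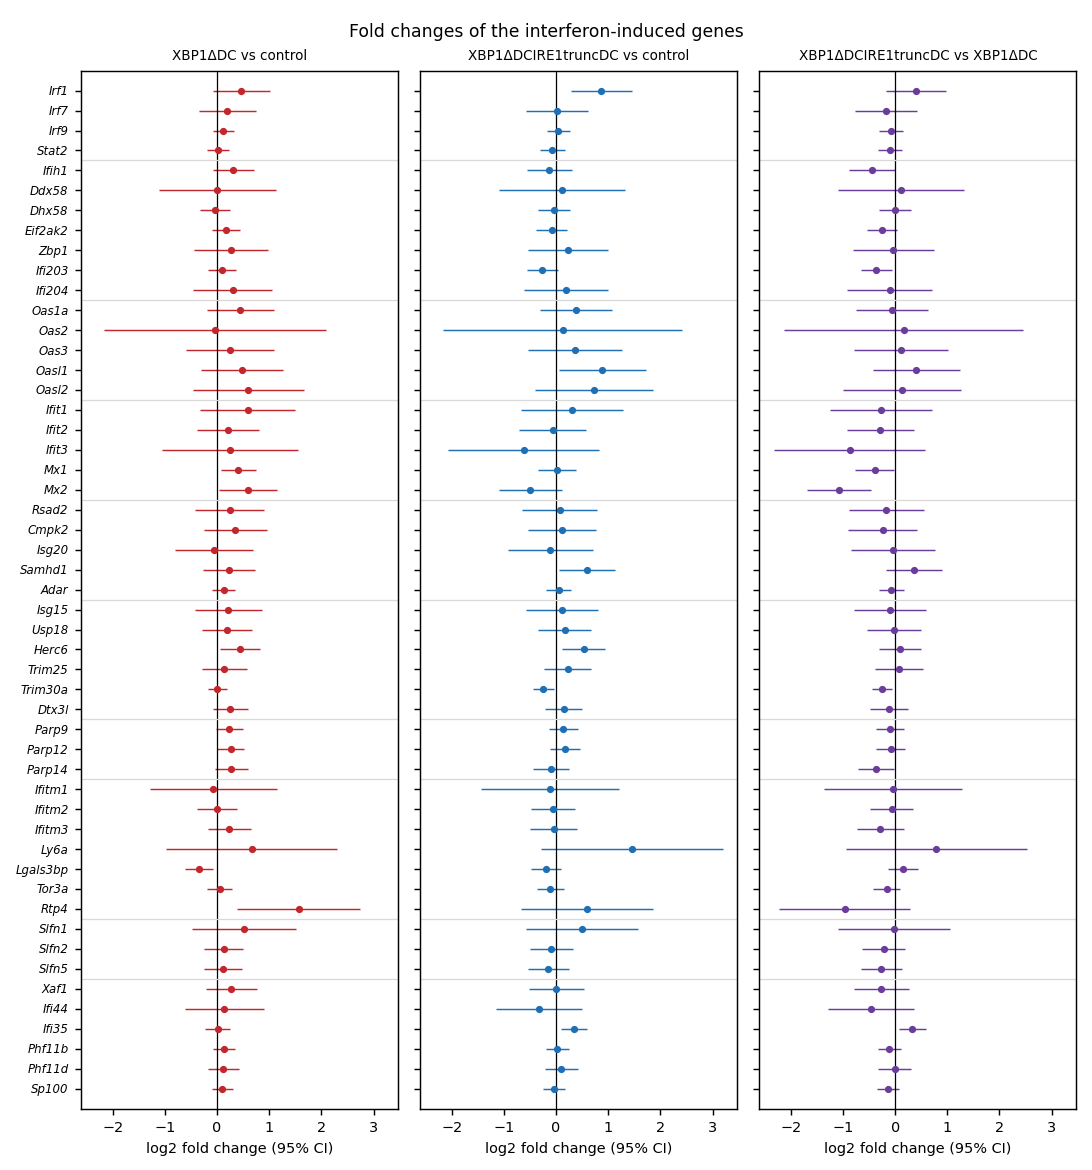
Log2 fold change with its 95% confidence interval (horizontal axes) of each of the 51 genes (rows, in order of role) in the 3 comparisons. Most points lie to the right of 0 in XBP1ΔDC against control, 46 of 51, but most intervals include 0 and no gene passed the adjusted test.

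Genes with and without an ISRE core in the promoter had similar values in XBP1ΔDC against control, with a median log2 fold change of 0.19 over the 16 with it and 0.20 over the 23 without. In XBP1ΔDCIRE1truncDC against control the medians were -0.06 and 0.10, and in XBP1ΔDCIRE1truncDC against XBP1ΔDC -0.21 and -0.05. These differences were not tested.

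Of 30 genes for the interferons, their receptors, upstream sensors and signal transducers, 22 passed the filter and none was called in any comparison with edgeR (0.493%, 0.21% and 0.0731% of all genes). At an unadjusted p under 0.05, 1 (*Tbk1*, a kinase that activates IRF3) was higher in XBP1ΔDC against control (2.67% of all genes). *Socs1*, an inhibitor of the receptor-bound kinases, was among those higher in XBP1ΔDCIRE1truncDC against control (5.73% of all genes), and 0 were higher between the mutant lines (2.79%). The groups overlapped for both receptor chain genes. Levels of *Ifnar1* were 217, 154, 169 and 155 CPM in control, 202, 191, 161 and 158 in XBP1ΔDC and 163, 141 and 177 in XBP1ΔDCIRE1truncDC pools. *Ifnar2* stood at 157, 134, 119 and 148 CPM in control replicates 1 to 4, at 131, 151, 143 and 132 in the XBP1ΔDC pools and at 141, 110.2 and 117 in the XBP1ΔDCIRE1truncDC pools. On the log2 scale *Ifnar1* in XBP1ΔDC against control differed by 0.03 (SE 0.124, edgeR adjusted p = 0.987). The difference of *Ifnar2* in XBP1ΔDC against control was -0.0044 on the log2 scale (SE 0.102, edgeR adjusted p = 0.998). The interferon genes themselves were hardly read, with 2 counts of *Ifnb1* in all 11 pools, 0 of *Ifna2* and *Ifna4*, and 5 and 3 counts of *Ifng* in control replicate 2 and XBP1ΔDCIRE1truncDC replicate 2. The lambda interferon genes *Ifnl2* and *Ifnl3*, which are near-identical copies, had 18 and 22 counts in XBP1ΔDC replicate 2 and 13 and 4 in XBP1ΔDC replicate 3.

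Of 6 plasmacytoid dendritic cell markers, 4 passed the filter and 2, *Ptcra* and *Klk1*, were at 0 in all pools, with sums of 50.2 to 56.0 CPM in control, 38.9 to 52.6 in XBP1ΔDC and 38.1 to 53.1 in XBP1ΔDCIRE1truncDC pools. Single markers of this list differed more than the sum. *Ccr9* was at 14.0 to 17.5 CPM in control, 5.72 to 13.4 in XBP1ΔDC and 2.89 to 10.39 in XBP1ΔDCIRE1truncDC pools. Every pool of both mutant lines was thus below every control, as for 3.67% and 5.81% of all genes (log2 fold change -0.59 and -1.17, edgeR adjusted p = 0.771 and 0.245). *Siglech* was at 3.03 to 5.53 CPM in control and at 0 to 2.09 CPM in XBP1ΔDCIRE1truncDC pools, which did not overlap (lower, 5.81% of all genes, log2 fold change -1.85, edgeR adjusted p = 0.397). Both were lower at an unadjusted p under 0.05 in XBP1ΔDCIRE1truncDC against control (5.44% of all genes), where *Tcf4* and *Pacsin1* were at -0.07 and 0.72 on the log2 scale. The part of these markers in the results was not tested.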

How the data were processed

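Sorted tumor cDC1s were profiled by SMART-seq v4 and single-end sequencing, with 2 to 4 mice per pool. The authors trimmed reads with Trimmomatic 0.39 after FastQC 0.11.8, aligned them to mm10 with STAR 2.7.3a and deposited raw read counts per gene from HTSeqCount. They also deposited log2 values, which equal voom log2 CPM after TMM scaling of the 11118 genes above 1 CPM in at least 3 pools (largest difference 4.97e-14), and the submitters' notes name limma 3.42.2.

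Here the deposited counts were fitted in edgeR 4.0.16 (R 4.3.3) with TMM scaling, all 3 groups in one quasi-likelihood model, on 10951 genes above 1 CPM in at least 4 pools. Benjamini-Hochberg adjustment ran over all of them, and calls were genes with adjusted p below 0.05 whose fold change exceeded 1.5. The common dispersion was 0.0473. Tests were two-sided, log2 CPM used a prior count of 2, and the scripts were tested on simulated data. limma 3.58.1 and DESeq2 1.42.0, other scalings and filters, a replicate block and each pool left out were alternatives. Promoters and figures used Python 3.11.15.

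The members, the other lists and the tests were chosen with earlier results of these data known. Values in every pool are given for the 5 genes with the smallest p in each comparison, the 5 with the highest mean CPM, and *Irf7*, *Irf9*, *Irf1*, *Stat2*, *Usp18* and *Isg15*, and of the signalling genes for *Ifnar1* and *Ifnar2*; 1 signalling gene is not reported here. *Oasl1* and others with single values were named after their values were seen. Replicate pools differed well beyond counting noise (chi-square per degree of freedom 20.6 to 64.6). Pools with the same replicate number deviated from their group means with a correlation of -0.0259 on average (-0.26 to 0.133 over 10 pairs). For pools with different numbers it was 0.00869 (-0.202 to 0.307 over 30 pairs). Replicate numbers thus showed no pairing on average, but so few pairs cannot exclude a batch shared by some of them.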

Additional observations from a re-analysis of the deposited data

Results flagged for a closer look

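Of 104 groups of 4 pools tested for a value far from the rest, 8 held one, where chance gives about 1 in 20. In XBP1ΔDC replicate 4 these were *Mx2* at 4.31 CPM, *Rtp4* at 1.24 CPM, *Phf11b* at 167 CPM and *Ifi204* at 14.0 CPM, each below the other 3 XBP1ΔDC pools. In XBP1ΔDC replicate 3 *Mx1* stood at 58.9 CPM and *Parp14* at 65.6 CPM, both above their group. *Ddx58* was at 8.78 CPM in XBP1ΔDC replicate 2, and *Dhx58* at 75.5 CPM in control replicate 1.

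Some signalling genes that were too low to test were flagged. The rule was at least 10 counts in a mutant pool and more than 3 times the highest control. Only mutant pools were searched, so the direction was fixed in advance, and no share over all genes was counted. In the other direction *Tlr7*, also too low to test, had 27 counts in control replicate 2 and at most 14 in any mutant pool. *Ifnl2* had 18 counts in XBP1ΔDC replicate 2 and 13 in XBP1ΔDC replicate 3, against at most 2 in control. *Ifnl3* had 22 counts in XBP1ΔDC replicate 2 and 0 in all control pools. *Ikbke*, a kinase related to TBK1, had 36 counts in XBP1ΔDC replicate 1 and 13 to 19 in the other XBP1ΔDC pools. It had 0 to 8 counts in control and 0 to 17 in XBP1ΔDCIRE1truncDC pools.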

How the results depend on the processing

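No interferon-induced gene was called under any of the alternatives run, and the median log2 fold change kept its sign with every tool, scaling and filter. It ranged over 0.11 to 0.38 in XBP1ΔDC against control, -0.04 to 0.16 in XBP1ΔDCIRE1truncDC against control and -0.26 to -0.06 between the mutant lines as single pools were left out. Genes at an unadjusted p under 0.05 then numbered 1 to 15 higher and 1 lower in XBP1ΔDC against control, 2 to 7 higher and 0 to 2 lower in XBP1ΔDCIRE1truncDC against control, and 0 to 3 higher and 2 to 11 lower between the mutant lines. The share of all genes at this level, in either direction, ranged over 5.82% to 8.3%, 8.5% to 12% and 4.69% to 7.18% in the same order. In XBP1ΔDC against control, 15 were higher without XBP1ΔDC replicate 4, 1 without control replicate 2, and 2 without control replicate 4, XBP1ΔDC replicate 1 or XBP1ΔDC replicate 3. Over all genes, the share in either direction without these pools was 7.56%, 5.86%, 6.38%, 5.82% and 7.81% in that order, against 7.62% with all pools. In XBP1ΔDCIRE1truncDC against control, 3 were higher without control replicate 2 or 4 and 2 without XBP1ΔDCIRE1truncDC replicate 2, while 2 were lower without control replicate 4, XBP1ΔDC replicate 4 or XBP1ΔDCIRE1truncDC replicate 1 or 2, and 0 without XBP1ΔDCIRE1truncDC replicate 3. Between the mutant lines, 2 were higher without XBP1ΔDC replicate 1, 3 without XBP1ΔDCIRE1truncDC replicate 1 and 0 without XBP1ΔDCIRE1truncDC replicate 2. Lower genes there numbered 11 without XBP1ΔDC replicate 4, 2 without XBP1ΔDC replicate 3, and 3 without XBP1ΔDC replicate 2 or XBP1ΔDCIRE1truncDC replicate 1 or 3. Genes above 0 there numbered 20 without XBP1ΔDC replicate 2 (52.2% of all genes) and 23 without XBP1ΔDCIRE1truncDC replicate 1 (50.7%). Fitting only the 2 groups compared gave 2 lower genes in XBP1ΔDCIRE1truncDC against control, among 7 in either direction (10.8% of all genes).

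With the replicate number as a block, XBP1ΔDCIRE1truncDC against control had 3 higher and 2 lower genes at an unadjusted p under 0.05 (9.2% of all genes in either direction). In that fit 19 of 51 were above 0 (50.1% of all genes), with a median of -0.07. Under this block *Irf7* was at -0.20, *Irf9* at -0.018 and *Isg15* at -0.13 in that comparison. *Usp18* between the mutant lines was at 0.002805 with limma voom and 0.0067 with limma on the deposited log2 values.

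As single pools were left out, *Stat2* ranged over -0.036 to 0.072 in XBP1ΔDC against control. In XBP1ΔDCIRE1truncDC against control *Irf7* ranged over -0.15 to 0.15, *Irf9* -0.014 to 0.13, *Usp18* -0.031 to 0.35 and *Isg15* -0.090 to 0.30. Between the mutant lines *Irf7* ranged over -0.39 to 0.020, *Irf9* -0.15 to 0.0089, *Usp18* -0.22 to 0.16 and *Isg15* -0.34 to 0.095. The cause was not tested. Depth limits the low genes such as *Oas2* and *Rtp4*, and 3 or 4 pools a group limit all others. Nothing used here says that pools of a group came from separate experiments, so p-values measure the spread between these pools.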
